A study of Arabidopsis thaliana with 12 samples.

Results

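The arrays used here carry, at the start of their probe set numbering, a run of 150 consecutively numbered probe sets that was laid out mainly for the genes of the plastid and mitochondrial genomes. All 150 were taken as members by number alone, out of 22810 probe sets on the array and with no use of their values. Placed by the gene identifier or symbol in the array annotation, 77 of them belong to 76 plastid genes and 12 to mitochondrial genes. The block is not purely organellar. A further 15 belong to loci on nuclear chromosome 2, of which 5 are AT2G07 loci, 1 (244944_s_at) matches 2 genes named *rps3* and *rpl16* and was not placed, and 45 carry no gene name in the annotation used here and are referred to by probe set only.

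The RNA was extracted from siliques, pods that still held their maturing seeds, harvested 18 to 19 days after pollination from plants grown with 16 h of light at 22°C and 8 h of dark at 16°C. The 4 genotypes were *hub1-2*, a mutant of the E3 ligase HUB1 that monoubiquitinates histone H2B and whose arrays carry the older name *rdo4*, *rdo2-1*, with a small deletion in the gene of the transcription elongation factor TFIIS, *rdo3*, another reduced dormancy mutant, and the wild type Landsberg *erecta* (L*er*), which is also the background of all 3 mutants. Each genotype had 3 arrays, 1 per RNA sample, and the paper describes the replicates as independent and biological. The array annotation used here names neither of the 2 known mutated genes, so their levels did not check the labels. Whole siliques pool embryo, endosperm, seed coat and pod wall, so fewer plastid-rich cells and less plastid RNA per cell cannot be told apart.

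Plastids and mitochondria keep small genomes of their own, which encode core subunits of the photosynthetic and respiratory complexes together with part of the machinery that translates them. All other subunits, as well as the sigma factors and RNA-binding proteins that act on organelle transcripts, are encoded in the nucleus and imported. Plastid genes are arranged in clusters that are transcribed together, by a bacterial type polymerase made in the plastid and by a phage type polymerase made in the nucleus. In Arabidopsis, nuclear chromosome 2 also carries a large copy of the mitochondrial genome, so that probes for mitochondrial transcripts and for the AT2G07 loci can share sequence. The amplification kit used for these arrays starts from 1 µg of total RNA with an oligo(dT) primer, and organelle transcripts mostly lack stable poly(A) tails. The level of an organelle transcript on the array therefore need not follow its abundance, and the part that priming played in any difference was not tested.

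All values below are intensities in arbitrary units as normalized by GC-RMA, given for replicates 1, 2 and 3 of a genotype in that order, and all fold changes are differences of mean log2 intensity. A probe set was called where the adjusted p of limma was under 0.01 over the 14666 probe sets tested. Of the 150 members 102 passed the filter on low values, an intensity of at least 7.5 on at least 2 of the 9 arrays of *hub1-2*, *rdo2-1* and L*er*. They comprise 68 plastid, 7 mitochondrial and 7 nuclear probe sets, the unplaced one and 19 without a name. Through the arrays of a single genotype alone passed 12 members in *rdo2-1*, 3 in L*er* and 1 in *hub1-2*, so counts and medians over the tested members are descriptions. The median intensity of an array lay between 11.6 and 12.1 over the 12 arrays, and values under it were not shown to be above background. Above that median on all 12 arrays were 36 plastid, 2 mitochondrial and 2 nuclear members, whereas 14 plastid, 5 mitochondrial and 10 nuclear members lay above it on none.

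The plastid members shifted together from array to array, both between and within genotypes. Relative to each probe set's own mean over 12 arrays, the median of the 68 tested plastid probe sets was -0.29, -0.50 and -0.61 (log2) on the *hub1-2* arrays and 0.54, 0.43 and 0.39 on the *rdo2-1* arrays. On the *rdo3* arrays it was 0.61, -0.26 and -0.19, and on the L*er* arrays 0.03, 0.45 and -0.51. Thus the 3 *hub1-2* arrays were low and the 3 *rdo2-1* arrays high, whereas *rdo3* replicate 1 and L*er* replicate 2 reached the level of *rdo2-1* and L*er* replicate 3 that of *hub1-2*. The median of the tested probe sets outside the block stayed between -0.03 and 0.02 on every array.

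**Figure D1:**
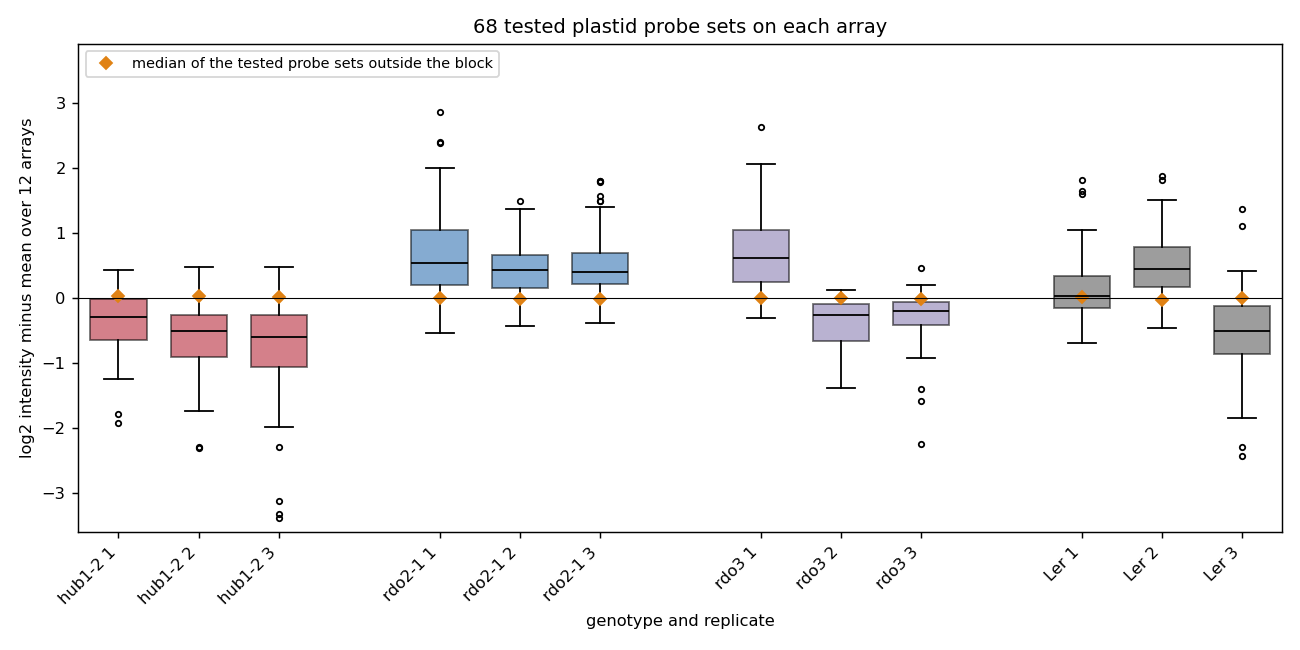
Log2 intensity of the 68 tested plastid probe sets on each of the 12 arrays, as the difference from each probe set's mean over all arrays. Boxes span the quartiles with the median as a line, whiskers reach 1.5 times the box height, and diamonds give the median of tested probe sets outside the block, which stayed between -0.03 and 0.02 while the plastid median ran between -0.61 and 0.61.

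Replicates differed more for plastid transcripts than for most genes, above all in *rdo3* and L*er*. The median SD of log2 intensity over 3 replicates was 0.50 in *rdo3* and 0.55 in L*er* for the plastid members, against 0.16 in *rdo3* and 0.19 in L*er* for all tested probe sets. It was 0.19 in *hub1-2* and 0.27 in *rdo2-1* for the plastid members, against 0.13 in *hub1-2* and 0.21 in *rdo2-1* for all tested probe sets. Replicate 1 was the highest of the *rdo3* arrays for 62 of the 68 plastid members, and replicate 3 the lowest of the L*er* arrays for 54 of them. For comparison, these shares of 91.2% and 79.4% stood beside 35.1% and 34.7% over all tested probe sets. For the 7 tested mitochondrial members the median differences from their own means were small, at 0.19, 0.00 and -0.04 in *rdo3* and 0.04, 0.00 and -0.05 in L*er*. Replicate 1 was the highest *rdo3* array for 3 of them and replicate 2 for 4, and replicate 3 was the lowest L*er* array for 3. By these counts the 2 arrays did not stand apart as they did for the plastid members. Which step set *rdo3* replicate 1 and L*er* replicate 3 apart for the plastid members was not tested.

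In *hub1-2*, 5 photosystem genes and *petA* of the cytochrome b6f complex fell relative to L*er*, by up to 3.19 on the log2 scale for *psaB*, beside 1 mitochondrial gene and 1 unnamed probe set. Of the 102 tested members 8 were called lower and 1 higher, where 9.44% of all tested probe sets were called in this comparison, 3.92% of them lower and 5.52% higher. CyberT, the test of the paper, called 18 members lower and 3 higher, with 17% of all tested probe sets. The 8 falls by limma were 7.84% of the tested members. Most other members had lower means in *hub1-2* without passing the test. The fold change was negative for 57 of the 68 tested plastid probe sets and for 6 of the 7 mitochondrial ones, with medians of -0.43 and -0.55, while the median over all tested probe sets was 0.02. Without the filter the median over all 77 plastid members was -0.37, and 61 of them were negative. Without L*er* replicate 2 the median over the 102 tested members was -0.21, against -0.35 with all arrays.

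*psaB* encodes a core subunit of the photosystem I reaction centre. Its intensity was 381, 282 and 86.0 in *hub1-2* siliques, against 2727, 2112 and 1205 in L*er* siliques. No *hub1-2* array came near the lowest L*er* array, and the log2 fold change was -3.19 ± 0.51 (SE) with an adjusted p of 0.0037. The *rdo2-1* arrays, with 1588, 1607 and 2540.1, overlapped with L*er*, and the *rdo3* arrays held 2161, 643 and 496, of which only the first lay within the L*er* range. The call was lost when L*er* replicate 1 was left out.

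*psbC* encodes CP43, an inner antenna protein of photosystem II. It read 65.3, 45.6 and 25.8 in *hub1-2*, against 464, 598 and 127 in L*er*, a fold change of -2.95 ± 0.55 (SE) with an adjusted p of 0.00689. The groups did not overlap, but L*er* replicate 3 was close to *hub1-2* replicate 1 and the call was lost in 5 of the 6 fits that left out 1 array, all but that without L*er* replicate 3. The *rdo2-1* arrays were even, at 603, 577 and 596, whereas *rdo3* was uneven at 611, 165 and 311.

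The falls of *petA* and *psbZ* kept their calls in all 6 fits with 1 array left out. *petA*, the gene of cytochrome f, had 22.1, 18.0 and 17.0 in *hub1-2* and 98.0, 73.3 and 61.4 in L*er*, a fold change of -2.01 ± 0.21 (SE) with an adjusted p of 0.0005. *psbZ*, a small subunit of photosystem II, had 539, 432 and 306 in *hub1-2* and 1970.5, 1629 and 1342 in L*er*, a fold change of -1.97 ± 0.21 (SE) with an adjusted p of 0.000616. In both cases every *hub1-2* array lay below every L*er* array by a wide margin. *petA* split the *rdo3* arrays, which read 122, 22.0 and 19.5, so that 2 of them lay near *hub1-2* and the first above L*er*.

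*psbH*, a phosphoprotein of photosystem II, had 246, 146 and 135 in *hub1-2*, against 654, 586 and 384 in L*er*, and fell by 1.64 on the log2 scale (adjusted p = 0.00379). *psbM*, another small subunit of photosystem II, fell by only 0.32 (adjusted p = 0.00706), with 4514, 4710.2 and 4462 in *hub1-2* and 5602, 5608 and 5843 in L*er*. The *hub1-2* arrays lay below the L*er* arrays for both genes, but *psbM* lost its call in each of the 6 fits with 1 array left out and *psbH* in 3 of them, those without *hub1-2* replicate 2, *hub1-2* replicate 3 or L*er* replicate 1.

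The remaining called members were dim. *nad4*, a mitochondrial subunit of respiratory complex I, read 4.55, 5.16 and 5.85 in *hub1-2* and 9.07, 10.2 and 8.78 in L*er*, a fold change of -0.85 ± 0.13 (SE) with an adjusted p of 0.00247. The unnamed probe set that opens the block read 6.13, 5.40 and 5.68 in *hub1-2* and 8.45, 8.23 and 9.32 in L*er* (-0.59, adjusted p = 0.00615). The nuclear locus AT2G26630, to which the annotation used here gives no function, was the only member called higher, with 8.52, 6.37 and 13.9 in *hub1-2* and 3.64, 3.98 and 4.13 in L*er* (1.22, adjusted p = 0.00866). AT2G26630 met the filter on low values only in *hub1-2*, where it was high. With no filter 1 member was called higher, and with a filter on the mean over 12 arrays 0 were. For these 3 probe sets the groups did not overlap, but all but 1 of the values lay under the array medians, and the size of such fold changes is uncertain. With 1 array left out, the unnamed probe set lost its call in 5 of 6 fits, all but that without L*er* replicate 2, and AT2G26630 in 5, all but that without *hub1-2* replicate 2. *nad4* lost it without *hub1-2* replicate 1 or 2.

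**Figure D2:**
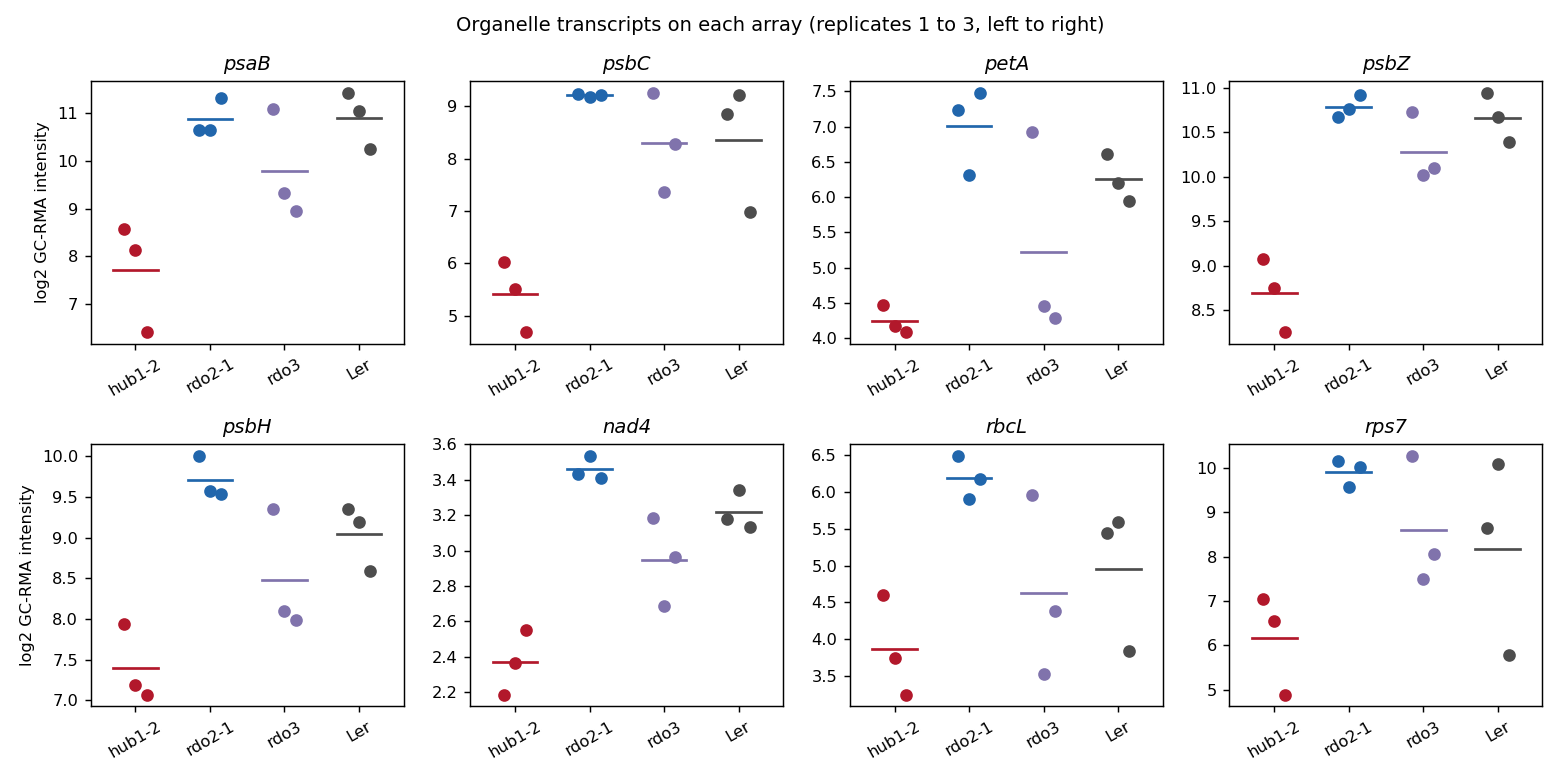
Log2 GC-RMA intensity of 8 organelle transcripts on the 12 arrays, with *hub1-2*, *rdo2-1*, *rdo3* and L*er* from left to right, 1 point per replicate and a bar at the mean of the 3 log2 values. All *hub1-2* points lie below all *rdo2-1* points in each panel, whereas *rdo3* replicate 1 is high for *petA*, *rbcL* and *rps7* and L*er* replicate 3 is low for *rbcL* and *rps7*.

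In *rdo2-1*, the direction was the opposite but no member passed the test. Over the 102 tested members 0 were called by limma, where 0.143% of all tested probe sets were called, and 28 members (27.5%) reached an unadjusted p under 0.05, beside 21.4% of all tested probe sets. Positive fold changes were found for 60 of 68 plastid and 7 of 7 mitochondrial members, with medians of 0.42 and 0.36 beside -0.01 over all tested probe sets. Without the filter, the median over 77 plastid members was 0.37 and 11 were negative. Over the 102 tested members the median was 0.36, and 0.23 without L*er* replicate 3. All 3 *rdo2-1* arrays exceeded all 3 L*er* arrays for 22 of the 102 members, while 12.6% of all tested probe sets had this order. CyberT called 2 members higher, namely *psbB* and the unnamed 244906_at, and 3.38% of all tested probe sets. They are named here because of these values, and *psbB* met the filter on low values only because of *rdo2-1*, where it was high. *psbB*, the gene of the antenna protein CP47, had 44.3, 13.1 and 15.6 in *rdo2-1* and 5.97, 12.8 and 4.46 in L*er*, and 244906_at had 19.3, 31.8 and 19.3 in *rdo2-1* and 8.76, 12.4 and 11.3 in L*er*. Both were higher in all *rdo2-1* arrays, with limma's adjusted p at 0.104 and 0.0434.

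In *rdo3*, no member passed the test, and the sign of the median over the members depended on single arrays. By limma 0 of 102 members were called, where 0.0205% of all tested probe sets were, and 2 (1.96%) had an unadjusted p under 0.05, beside 10.5% of all tested probe sets. They were the complex I gene *nad4L* and the unnamed 245038_at. The median was 0.03 over the plastid and -0.04 over the mitochondrial members, with 39 of 68 and 3 of 7 positive. Over all 102 tested members it was 0.02 and moved to -0.14 without *rdo3* replicate 1, to 0.19 without L*er* replicate 2 and to -0.15 without L*er* replicate 3. The fold changes of the plastid members ran between -1.33 for *psbK* and 0.69 for *psbT*. CyberT called 1.01% of all tested probe sets and, among members, 245038_at alone, with 164, 635 and 172 in *rdo3*, against 83.9, 66.2 and 80.7 in L*er*, and its highest value was a single array. An absence of calls in *rdo3* and *rdo2-1* does not show that these genotypes have the levels of L*er*, since the replicates of L*er* and *rdo3* spread as described above.

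**Figure D3:**
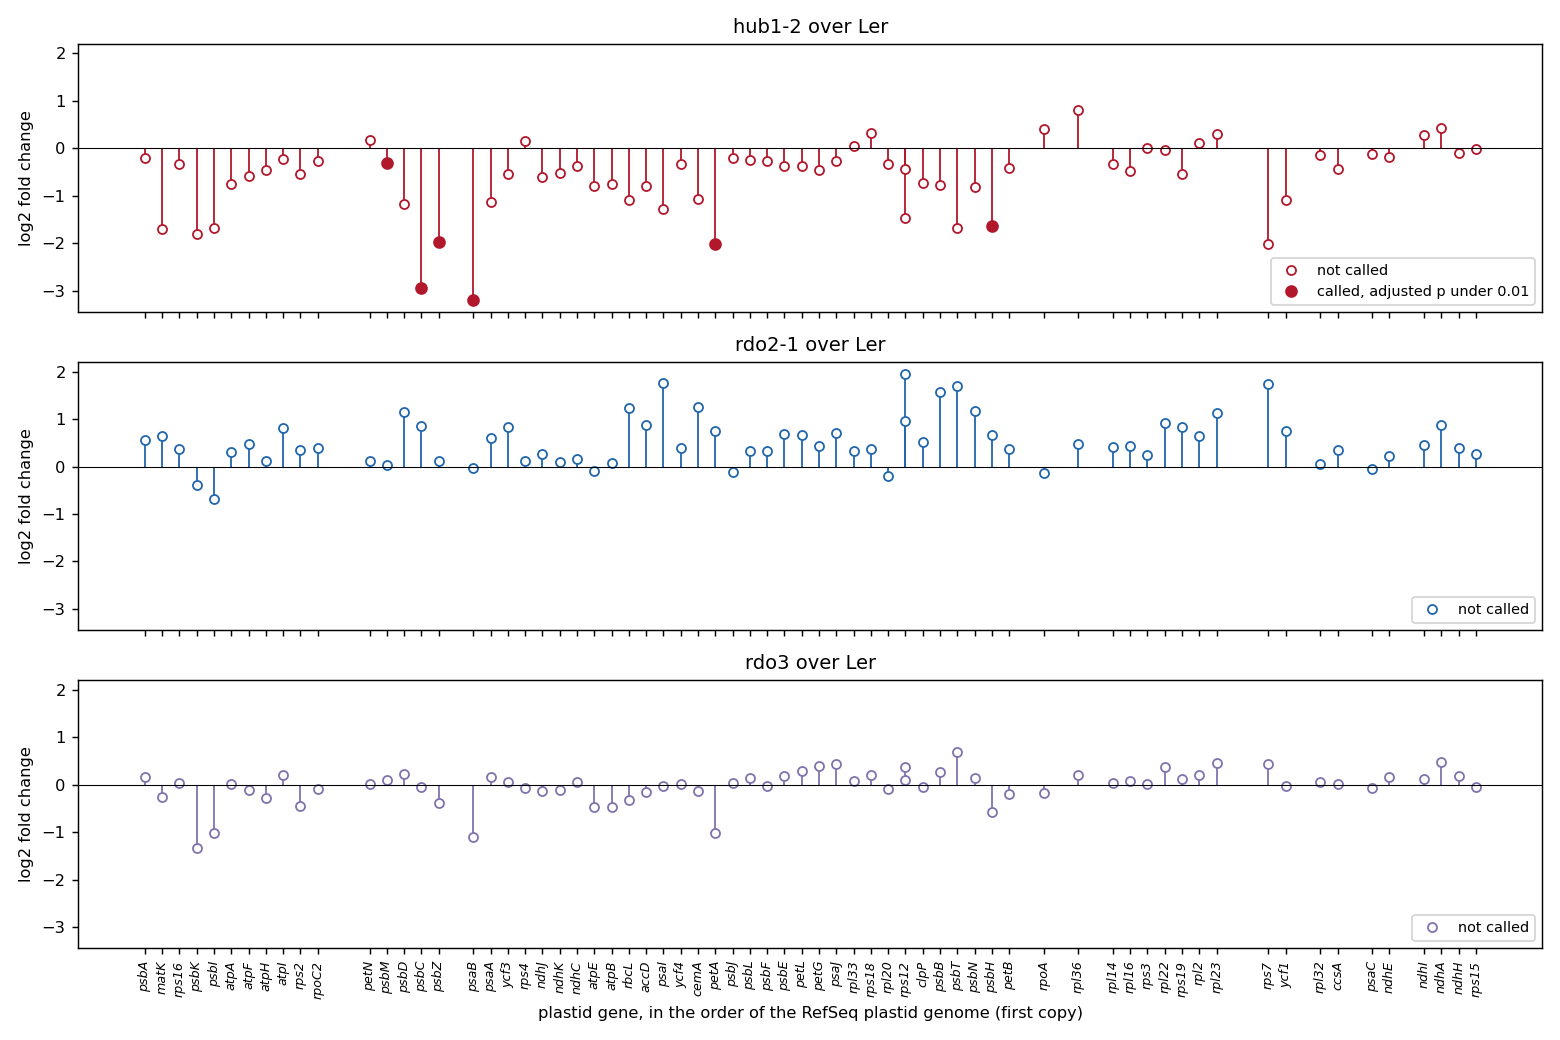
Log2 fold change over L*er* of the 68 tested plastid probe sets for *hub1-2*, *rdo2-1* and *rdo3*, from top to bottom, with genes in their order on the RefSeq plastid genome and filled points for those called at an adjusted p under 0.01. Filled points appear in *hub1-2* for *psbM*, *psbC*, *psbZ*, *psaB*, *petA* and *psbH* and in neither of the other 2 genotypes. All 3 comparisons share the L*er* arrays.

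Read along the plastid genome, 3 of the 6 plastid genes called lower in *hub1-2* lay in the run from *psbD* to *psaA*. *psbM*, also called lower (-0.32), comes directly before *psbD* in this order. Only gene order was used here, without strand, so the genes of a run need not be transcribed together. The neighbouring genes *psbD*, *psbC*, *psbZ*, *psaB* and *psaA* had fold changes of -1.16, -2.95, -1.97, -3.19 and -1.13 over L*er*. *rps14*, between *psbZ* and *psaB*, was under the filter. Outside this run, *psbK* and *psbI*, small subunits of photosystem II that lie next to each other, had -1.80 and -1.68 and were not called. *psbK* read 274, 129 and 62.2 in *hub1-2* and 861, 201 and 531 in L*er*, and *psbI* read 265, 151 and 110.2 in *hub1-2* and 919, 212 and 751 in L*er*. For both genes L*er* replicate 2 lay below the first *hub1-2* array, although replicate 2 was the highest L*er* array for 46 of the 68 plastid members.

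Negative fold changes also stood elsewhere on the plastid genome. *psbB*, *psbT*, *psbN* and *psbH*, neighbours that encode photosystem II subunits or, for *psbN*, a protein known from tobacco to act in its assembly, had -0.76, -1.67, -0.82 and -1.64, of which *psbH* alone was called. In the run *psaI*, *ycf4*, *cemA* and *petA* the values were -1.27, -0.34, -1.07 and -2.01, and *petA* alone was called. *rps7* and *matK*, which lie apart from these runs, had -2.01 and -1.70 and did not pass. *psbJ*, *psbL*, *psbF* and *psbE*, which lie side by side and encode small photosystem II subunits including both chains of cytochrome b559, had fold changes of -0.20, -0.24, -0.27 and -0.38. *rpoA*, the alpha subunit gene of the plastid-made RNA polymerase, had a positive value of 0.41 (adjusted p = 0.0642), and *rpl36*, a ribosomal protein gene, had 0.81 (adjusted p = 0.159). *rpoA* read 298, 356 and 354 in *hub1-2* and 290.4, 241 and 228 in L*er*, and the groups did not overlap, but neither gene passed the test.

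More members passed the test between *hub1-2* and *rdo2-1* than in any other of the 6 comparisons, and nearly all of them were lower in *hub1-2*. In *hub1-2* against *rdo2-1*, 47 of the 102 tested members were called lower and 2 higher, where 19.5% of all tested probe sets were called, 7.64% lower and 11.9% higher. The lower calls took in 38 of 68 plastid members (55.90%) and 4 of 7 mitochondrial members (57.10%), beside 1 nuclear and 4 unnamed ones. All *hub1-2* arrays lay below all *rdo2-1* arrays for 52 of the 68 plastid members, an order that 23.3% of all tested probe sets showed. The median fold change was -0.88 over plastid and -0.75 over mitochondrial members and 0.02 over all tested probe sets. CyberT called 60 members lower and 4 higher, with 26.9% of all tested probe sets. Fitted without the filter, 49 of the 150 members were called lower and 2 higher, with a median of -0.76 over all 77 plastid members, 70 of them negative. With 1 array left out, 26 of the 49 calls held in each of the 6 fits. Among the members named below, *psbB* and *psbA* lost theirs without *hub1-2* replicate 3, *ccb382* and *atpF* in 2 fits, *ndhC* and *ycf1* in 3, *petL*, *rpl2*, *atpA* and 244979_at in 4, and *petB*, *nad6* and AT2G07751 in 5. The fits without *hub1-2* replicate 2 or *hub1-2* replicate 3, which gave 30 and 26 calls, were the ones in which most of these were lost. The L*er* and *rdo3* arrays that stood apart do not enter this comparison.

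Of the 15 photosystem II probe sets tested 11 fell in *hub1-2* against *rdo2-1*, and of the 7 for photosystem I and its assembly factors *ycf3* and *ycf4* 6 fell. *psbC*, with the lowest fold change of the tested plastid members, had 65.3, 45.6 and 25.8 in *hub1-2*, against 603, 577 and 596 in *rdo2-1*, a fold change of -3.80 ± 0.29 (SE) with an adjusted p of 6.07e-05. *psbT*, a small subunit of photosystem II, had 4.66, 3.59 and 7.04 in *hub1-2*, against 128, 24.7 and 40.9 in *rdo2-1*, with -3.37 (adjusted p = 0.00138). For *psbT* the *hub1-2* values are under the array medians, so its fold change is less certain than that of *psbC*. *psaB* differed by -3.15 (adjusted p = 0.00119) and *psaI*, a small subunit of photosystem I with 13.5, 7.03 and 5.34 in *hub1-2* and 82.7, 53.2 and 61.6 in *rdo2-1*, by -3.02 (adjusted p = 0.000282). *psbB* differed by -2.34 (adjusted p = 0.0019), with *hub1-2* values of 3.53, 4.55 and 4.33 that were not shown to be above background. As given above, *psbB* met the filter because of *rdo2-1*, where it was high.

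The ribosomal protein genes *rps7* and *rps12*, both of the small subunit, were among the 3 deepest falls. *rps7* read 131, 93.9 and 29.7 in *hub1-2*, against 1137, 762 and 1032 in *rdo2-1*, a fold change of -3.75 ± 0.46 (SE) with an adjusted p of 0.000511. *rps12*, which is joined by trans-splicing from separately transcribed parts, read 68.4, 42.2 and 28.7 in *hub1-2*, against 731, 393 and 352 in *rdo2-1* on 244940_at, a fold change of -3.42 ± 0.35 (SE) with an adjusted p of 0.000233. The second probe set of *rps12*, 244939_at, gave a smaller value of -1.37 that was not called (adjusted p = 0.0204). *rps7* and *rps12* were not called against L*er*, whose arrays for *rps7* read 402, 1089.7 and 54.9 and reached from near the *hub1-2* levels to those of *rdo2-1*. Of the 19 ribosomal protein probe sets tested 8 fell, with a class median of -0.70, and the other 11 did not pass. *rpl2*, of the large subunit, fell by 0.52 (adjusted p = 0.00396), with 1232, 1132 and 1076 in *hub1-2* and 1709, 1667 and 1558 in *rdo2-1*.

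**Figure D4:**
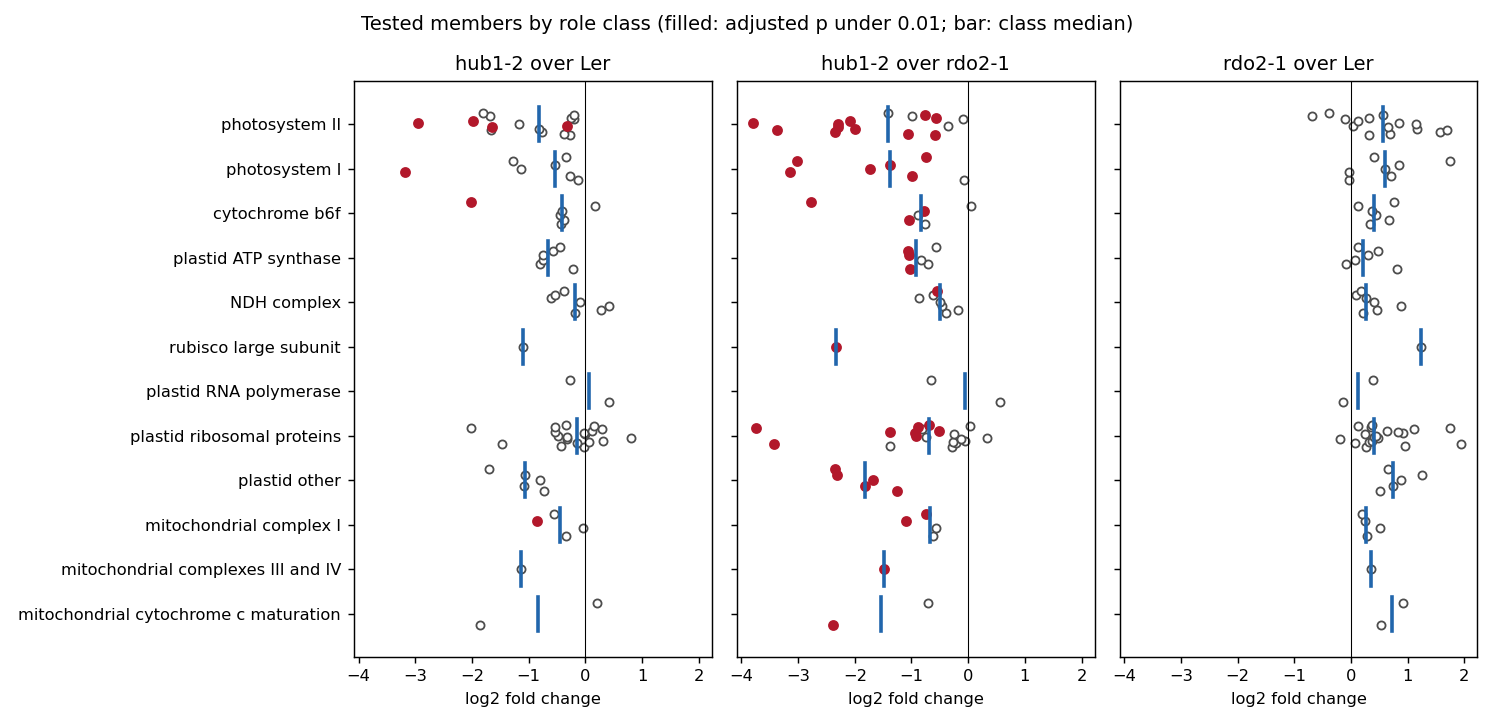
Log2 fold change of tested members by role class for *hub1-2* over L*er*, *hub1-2* over *rdo2-1* and *rdo2-1* over L*er*, with 1 point per probe set, filled where called at an adjusted p under 0.01, and a bar at the class median. Class medians lie below 0 in both *hub1-2* panels, except for the plastid RNA polymerase over L*er* at 0.07, and above 0 for every class in *rdo2-1* over L*er*, where no point is filled.

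Plastid genes outside the photosystems also fell in *hub1-2* against *rdo2-1*, among them *petA*, *rbcL* and the whole of a mixed class of 5. *petA* differed by -2.76 (adjusted p = 0.000257), with 150.4, 79.3 and 178 in *rdo2-1*. *rbcL*, the large subunit of the carbon-fixing enzyme Rubisco, had 24.3, 13.3 and 9.48 in *hub1-2* and 90.2, 60.1 and 72.1 in *rdo2-1* and differed by -2.33 (adjusted p = 0.00088). The mixed class of 5 other plastid genes fell with fold changes between -2.34 and -1.25. They were *matK*, a maturase of plastid introns, *cemA*, an envelope protein, *ycf1*, *accD*, a subunit of the acetyl-CoA carboxylase of fatty acid synthesis, and *clpP*, the catalytic subunit of the Clp protease. *matK* read 37.2, 29.6 and 18.2 in *hub1-2* and 177, 179.9 and 82.6 in *rdo2-1*, with an adjusted p of 0.00122. In the cytochrome b6f class with its biogenesis factor *ccsA*, 3 of 6 fell, *petA*, *petL* and *petB*, while *ccsA* had -0.76 and did not pass (adjusted p = 0.0118).

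Of the 6 tested ATP synthase probe sets 3 were called lower in the same comparison by limma and 6 by CyberT, and of the 7 tested probe sets of the NDH complex, which cycles electrons around photosystem I, 1 by limma and 3 by CyberT. *atpA*, *atpF* and *atpI* were called lower in *hub1-2* than in *rdo2-1* by 1.05, 1.05 and 1.03 (log2). Their mean log2 intensities over 12 arrays were only 3.74, 3.62 and 2.90. Those of *atpA* and *atpF* lay near the array medians and that of *atpI* under them. In *hub1-2* the mean log2 intensities of all 3 lay under the array medians, so the size of their fold changes is uncertain. *atpB* and *atpE*, which lie next to each other and were above the array medians throughout, were not called at -0.82 and -0.71. *atpB* read 3191, 2394 and 1523 in *hub1-2* and 3867, 3460.3 and 4824 in *rdo2-1*, without overlap. Of the NDH genes *ndhC* fell by 0.54 (adjusted p = 0.00359), with 3131, 2581 and 2512 in *hub1-2* and 3926, 3807 and 4207 in *rdo2-1*. *ndhI* and *ndhA* had -0.19 and -0.45 and did not pass. The other 4 of the 11 NDH probe sets were under the filter.

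Several plastid transcripts well above the array medians differed little between these mutants. *rps4* read 1527, 1471 and 1489.7 in *hub1-2* and 1339.5, 1458 and 1619 in *rdo2-1*, a fold change of 0.03 ± 0.10 (SE). *psbJ* and *rpl32* had -0.08 ± 0.10 (SE) and -0.21 ± 0.12 (SE), and *psaC*, an iron-sulfur subunit of photosystem I near the filter, had -0.08. *psbA*, the gene of the D1 protein that turns over fastest in photosystem II, fell by 0.76 (adjusted p = 0.0018), with 551, 524 and 444 in *hub1-2* and 874, 877 and 813 in *rdo2-1*. The shift in *hub1-2* against *rdo2-1* was uneven within the plastid genome, ranging from -3.80 to 0.56, where the highest was *rpoA*. *rpoA* read 298, 356 and 354 in *hub1-2* and 176, 250.0 and 268 in *rdo2-1* and did not pass (adjusted p = 0.0378). *rpoC2*, another subunit of the same polymerase, had -0.66 (adjusted p = 0.0107), and *rpoB* and *rpoC1* were under the filter.

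Both members called higher in *hub1-2* than in *rdo2-1* carry no gene name here. 244979_at read 555, 597 and 609 in *hub1-2* and 292, 399 and 405 in *rdo2-1*, a fold change of 0.70 ± 0.15 (SE) with an adjusted p of 0.00718. 245046_at read 946, 945 and 930.1 in *hub1-2* and 537, 587 and 524 in *rdo2-1*, a fold change of 0.78 ± 0.11 (SE) with an adjusted p of 0.00089. Both were above the array medians on all 12 arrays, with no overlap between the genotypes. The call of 245046_at held under every alternative run. That of 244979_at was lost in the 4 fits without *hub1-2* replicate 1, 2 or 3 or without *rdo2-1* replicate 1. It was also lost with arrays centred on the median of probe sets outside the block, with quantile normalization, with no trend in the prior spread, in 1 fit over 12 arrays and with a floor of 16, at adjusted p-values between 0.01 and 0.035.

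All 7 tested mitochondrial transcripts had lower means in *hub1-2* than in *rdo2-1*, and 4 of them passed the test. *cox2*, a subunit of cytochrome c oxidase, read 15.2, 17.1 and 17.0 in *hub1-2*, against 47.3, 49.6 and 41.6 in *rdo2-1*, a fold change of -1.49 ± 0.16 (SE) with an adjusted p of 0.000307. Against L*er*, with 50.1, 23.9 and 38.7, the *hub1-2* arrays were also all lower, but the call was missed (adjusted p = 0.0141). *ccb382*, needed for cytochrome c maturation, read 26.3, 11.0 and 8.90 in *hub1-2* and 59.2, 114 and 54.7 in *rdo2-1*, a fold change of -2.39 ± 0.41 (SE) with an adjusted p of 0.00242. The complex I genes *nad4* and *nad6* fell by 1.09 and 0.75, both from dim values, whereas *nad4L* and *nad7* had -0.61 and -0.56 and did not pass. *ccb452* read 12.7, 14.1 and 15.3 in *hub1-2* and 17.8, 38.2 and 17.5 in *rdo2-1* and did not pass, and the other 5 mitochondrial members, among them *matR*, *nad9* and *orfX*, were under the filter.

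Against *rdo3*, *hub1-2* differed in the same members only in part. Here 5 of the 102 members were called lower and 2 higher, where 11.2% of all tested probe sets were called, 4.73% lower and 6.48% higher. *psbC* and *psbZ* fell by 2.89 and 1.59 (adjusted p = 0.00412 and 0.00272), and *nad6*, the probe set that opens the block and *psbM* by 0.78, 0.76 and 0.41. *psbZ* read 539, 432 and 306 in *hub1-2* and 1696, 1041 and 1095 in *rdo3*, with no overlap. The 2 called higher were 244979_at (0.83), with 555, 597 and 609 in *hub1-2* and 355, 368 and 275 in *rdo3*, and AT2G26630 (1.22). AT2G26630 met the filter on low values in *hub1-2*, where it was high. CyberT called 23 members lower and 3 higher, with 18.8% of all tested probe sets. Fold changes were negative for 61 of 68 plastid members, with a median of -0.43. Over all 102 tested members the median was -0.37, and -0.13 without *rdo3* replicate 1. Leaving out *rdo3* replicate 2 raised the count of called members to 14, and leaving out *rdo3* replicate 3 lowered it to 1, so the count depends on single arrays. Over all tested probe sets these fits called 2337 and 518, against 1644 with all arrays. The call of the probe set that opens the block held in all 6 fits with 1 array left out, whereas those of the other 6 were lost in 3 to 6 of them.

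Between *rdo2-1* and *rdo3*, 0 of 102 members were called by limma, where 0.252% of all tested probe sets were, and 31 (30.4%) had an unadjusted p under 0.05, beside 20.4% of all tested probe sets. *rdo2-1* had the higher mean for 65 of 68 plastid members, with a median of 0.40. CyberT called 2.81% of all tested probe sets and, among members, *psbH*, *petB* and *psaI* higher in *rdo2-1*, which are named here because of that, with 1028, 763 and 739.8 in *rdo2-1* and 654, 274 and 253 in *rdo3* for *psbH*. *petB* is a cytochrome b6f subunit. Without *rdo3* replicate 1, the array with high plastid values, limma called 3 members, beside 23 of all tested probe sets. The median over the 102 tested members was then 0.57, against 0.38 with all arrays.

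Except in *rdo3* over L*er*, most of the 7 tested nuclear members of the block had fold changes of the sign that most plastid members had. In *rdo3* over L*er* 6 of 7 were negative, with a median of -0.04, whereas 39 of the 68 plastid members were positive. In *hub1-2* over L*er* 6 of 7 were negative, with a median of -0.37, in *rdo2-1* over L*er* 6 of 7 were positive, with a median of 0.31, and in *hub1-2* over *rdo2-1* 6 of 7 were negative, with a median of -0.56 and 4 of them without overlap between the groups. Of all tested probe sets 47.4%, 51.2% and 48.2% were negative in these comparisons, in that order. In *hub1-2* over *rdo2-1*, 23.3% of them were lower without overlap. Few passed the test. Of the 7, 1 was called in *hub1-2* against L*er*, AT2G26630 as given above, 1 in *hub1-2* against *rdo2-1* and 0 in the comparisons of *rdo2-1* or *rdo3* with L*er*, although 1 of them had an unadjusted p under 0.05 in *rdo2-1* and CyberT also called 0 in both. AT2G07751 was the one called lower in *hub1-2* than in *rdo2-1*, with 10.9, 8.43 and 9.65 in *hub1-2* and 17.4, 15.6 and 13.9 in *rdo2-1* (-0.69, adjusted p = 0.00831). Its probe set matches more than 1 transcript, so that its sources cannot be told apart. AT2G26600 and *AR781* had overlapping arrays in the same comparison and did not pass, and AT2G26500 did not pass although its arrays were separate, at 521, 536 and 515 in *hub1-2* and 810.5, 610.3 and 1265 in *rdo2-1*. Against *rdo3*, AT2G26630 was the nuclear member called higher in *hub1-2*, the genotype in which it met the filter on low values.

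Nuclear genes that work with the organelle genomes were checked from lists matched to the array annotation, which names too few of them for a statement on the lists. Of 38 listed nuclear subunits of photosynthetic complexes 5 were named and tested. All 5 had negative fold changes in *hub1-2* over L*er*, with a median of -0.66, and in *hub1-2* over *rdo2-1* 3 of the 5 fell, *PSAE1*, *PSBW* and *PSBY*. Their summed intensity ranged from 2004 to 2595 in *hub1-2*, 3339 to 5667 in *rdo2-1*, 2279 to 3580 in *rdo3* and 2646 to 4824 in L*er*. Of 20 listed nuclear subunits of respiratory complexes 7 were tested, with a median of -0.02 in *hub1-2* over L*er* and 1 called, *COX5B-1*, lower in *hub1-2* than in *rdo2-1*. Of 24 plastid transcription genes only *RPOTMP* was tested, a phage type RNA polymerase, which was higher in *hub1-2* at 24.3 ± 2.04 (SD, n = 3), against 12.9 ± 0.51 (SD, n = 3) in L*er* (log2 fold change 0.91, adjusted p = 0.00273).

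Of 11 markers of the silique wall 3 were named and tested, and 0 of 11 seed storage, 0 of 9 senescence and 0 of 16 plastid RNA processing genes, so that the tissue label could be checked on 3 genes only. The summed intensity of the 3 wall markers ranged from 11020 to 12758 in *hub1-2*, 15836 to 17855 in *rdo2-1*, 13175 to 14406 in *rdo3* and 13003 to 14975 in L*er*. The sum was mostly that of *ADPG1*, with a mean of 10230 in *hub1-2*, beside 1371 for *SPT* and 21.4 for *ALC*. *ALC* thus lay not far above the array medians in *hub1-2*. *ALC*, a regulator of pod opening, had log2 fold changes of -1.17 in *hub1-2* over L*er* and -2.27 in *hub1-2* over *rdo2-1* (adjusted p = 0.00223 and 0.000467), and *ADPG1*, a wall-degrading enzyme of the dehiscence zone, fell by 0.60 in *hub1-2* over *rdo2-1* (adjusted p = 0.000713). *SPT*, the other wall marker and a regulator of carpel development, had the opposite sign, with 0.39 in *hub1-2* over L*er* and 0.43 in *hub1-2* over *rdo2-1* (adjusted p = 0.0123 and 0.0593), and did not pass. *ALC*, *ADPG1* and the 5 photosynthesis genes thus had the sign of the plastid members and *SPT* did not, and their part in the result was not tested.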

How the data were processed

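RNA from siliques of 4 genotypes was hybridized to Affymetrix ATH1 arrays, 3 arrays per genotype, and grouped by the genotype in the labels. The authors amplified 1 µg of total RNA with the MessageAmp II-Biotin Enhanced kit and deposited linear intensities made by GC-RMA in Expressionist Pro. The set of arrays entering that normalization was not stated in these sources, and detection p-values do not accompany the intensities. Here, log2 intensities were compared over the 6 arrays of each pair of genotypes with limma 3.58.1 (lmFit and eBayes with a trend) in R 4.3.3, without covariates. The 64 controls and the probe sets under the filter given with the results were excluded. Adjustment was by Benjamini-Hochberg across the 14666 probe sets tested, of which 8089 have 1 gene symbol, 356 several and 6221 none. CyberT, with a prior weight of 10, and limma were tested on simulated data. Members were placed through RefSeq gene identifiers (TAIR10.1) or symbols. The genes named are the called members of each comparison, up to 10 in each direction, and the 3 members of each role class with the highest mean, beside others discussed by class or position or said to be chosen for their values. Members and gene lists were chosen with earlier results of these data known. The precision is limited by 3 arrays per group, and p-values measure the spread between these samples. Replicate numbers were not used as a block. Alternatives covered the filter, test, prior spread, arrays in the fit, scaling, an intensity floor, the threshold, probe sets matching several genes, the block and leaving out each array. Python 3.11.15, pandas 2.3.3, NumPy 2.4.6 and matplotlib 3.10.9 made summaries and plots.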

Additional observations from a re-analysis of the deposited data

Results flagged for a closer look

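The change from L*er* differed between mutants for part of the block, by a test of *hub1-2* against the other mutant directly. For *hub1-2* against *rdo2-1* this held for 49 of the 102 tested members and for *hub1-2* against *rdo3* for 7, both by limma at an adjusted p under 0.01. Of all tested probe sets 19.5% were called against *rdo2-1* and 11.2% against *rdo3*. The 7 members against *rdo3* did not exceed that share. Groups of 3 arrays were too small for a test of single arrays that stand apart.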

How the results depend on the processing

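All alternatives were followed for the 9 called members of *hub1-2* against L*er*, the 7 of *hub1-2* against *rdo3* and 12 of the 49 of *hub1-2* against *rdo2-1*. No alternative reversed the sign of any of these. Of their values under alternatives, 362 kept the call and 110 lost it. Other called members named in the results are not in these counts, and several of them lost their calls with 1 array left out. The count of called members moved with the test, the threshold, an intensity floor and single arrays. For *hub1-2* against L*er* (9 called) it was 21 by CyberT, 22 at an adjusted p under 0.05, 5 with no trend in the prior spread and 0 with a floor of 16, and 3 to 12 with 1 array left out, the lowest without L*er* replicate 1 and the highest without L*er* replicate 3. Over all 14666 tested probe sets the counts were 2494 by CyberT, 3526 at an adjusted p under 0.05, 1120 with no trend and 221 with the floor. They were 800 without L*er* replicate 1 and 869 without L*er* replicate 3. With the floor, *psaB* and *psbZ* kept their fold changes and had adjusted p-values of 0.0499 and 0.0186. For *hub1-2* against *rdo2-1* (49) it was 31 in 1 fit over 12 arrays, 74 at an adjusted p under 0.05, 8 with the floor of 16, and 26 to 49 with 1 array left out, with 26 without *hub1-2* replicate 3 and 30 without *hub1-2* replicate 2. CyberT called 64. For *hub1-2* against *rdo3* (7) it was 26 by CyberT, 26 at an adjusted p under 0.05, 4 with no trend, 0 with the floor and 1 to 14 with 1 array left out. Over all tested probe sets the counts were 2755 by CyberT, 3885 at an adjusted p under 0.05, 1370 with no trend and 504 with the floor. Against L*er* and against *rdo3*, the share of tested members called in *hub1-2* at an adjusted p under 0.05 was not above that over all tested probe sets. For *rdo2-1* against L*er* (0) it was 2 by CyberT and 1 at an adjusted p under 0.05, and for *rdo3* against L*er* (0) it was 1 by CyberT, both 0 to 0 with 1 array left out. For *rdo2-1* against *rdo3* (0) it was 3 by CyberT and 0 to 3 with 1 array left out. Over all tested probe sets CyberT called 496 for *rdo2-1* against L*er*, 148 for *rdo3* against L*er* and 412 for *rdo2-1* against *rdo3*. At an adjusted p under 0.05, 448 were called for *rdo2-1* against L*er*. In no comparison did all 3 same-numbered pairs deviate together. In *rdo2-1* against L*er*, replicates 2 and 3 did, with correlations of 0.26 and 0.39 over probe sets, and replicate 1 did not, with -0.09. For *rdo2-1* against *rdo3* the correlations of replicates 1, 2 and 3 were 0.24, 0.15 and -0.04. For *hub1-2* against *rdo2-1* they were 0.23, -0.05 and 0.06. With the replicate number as a block, the counts were 9, 54 and 6 for *hub1-2* against L*er*, *rdo2-1* and *rdo3* and 1 for *rdo2-1* against *rdo3*. Over all tested probe sets they were 870, 2819, 971 and 87, in the same order. The cause of these changes was not tested. Intensities under the array medians limit what can be said of dim members.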
